A study of Homo sapiens with 2 samples.

Results

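Genomic imprinting sets a small number of loci apart from the rest of the genome, and 9 windows on hg19 that hold 10 such genes were read here from a map of TET1 binding. The genes were H19, IGF2, KCNQ1OT1, MEG3, SNRPN, GNAS, PEG10, MEST, PLAGL1 and PEG3, with H19 and IGF2 sharing a window. Every TET1 peak with at least 1 base inside a window was taken, which gave 55 of the 46207 peaks on the human chromosomes (0.119%). The windows span 925 kb in all and were set by position, so peak number, width and score were free to vary. The genes were chosen with earlier results of these data known. The cells came from H1, an established human embryonic stem cell line whose own TET1 gene carries a V5 tag, although the genotype entry of both libraries reads wild type. Differentiation towards heart used 6 µM CHIR99021, which activates WNT signalling, for the first 2 days, then 5 µM IWP2, which blocks it, between days 3 and 5. Cells were taken as cardiac progenitors on day 7. The V5 ChIP and the input were 1 library each from such cells, with no replicate. The extraction text of the labels describes purified genomic DNA and no immunoprecipitation, so that the list comes from a V5 ChIP rests on the titles and the series' design text. No V5 ChIP of untagged cells was analysed here, so TET1 signal and off-target antibody signal cannot be told apart. A peak list holds no expression by which the cell type could be checked against markers.

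At an imprinted locus the copy from one parent is expressed and the other is silent. A control region there carries DNA methylation on one parental copy, laid down in the egg or in sperm, and this mark steers the genes around it. TET1 oxidises methylated cytosine as a step towards its removal and carries a domain that binds CpG-rich DNA, and TET enzymes are known for their part in erasing imprints in germ cells. At H19-IGF2 and MEG3 the control region lies between genes and is methylated on the paternal copy. At KCNQ1OT1, SNRPN, GNAS, PEG10, MEST, PLAGL1 and PEG3 it lies at a promoter and is methylated on the maternal copy. The peaks are not split by parental copy, so which copy was bound is not known.

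CpG pairs, the substrate of methylation, differ in number between the starts of these genes, and the sequences below show that range. The RefSeq promoter table (build GRCh38.p14, 250 bases before to 50 after a start) held 24 starts of 6 of the 10 genes: 6 of GNAS, 5 of MEST, 5 of PLAGL1, 4 of SNRPN, 3 of MEG3 and 1 of H19. Printed for each gene is the start with most CpG pairs and, for SNRPN, also the start with fewest. They run 5′ to 3′ on the strand of the gene, with each CpG in capitals. Their positions are on GRCh38.p14 while the peaks are on hg19, so no sequence is placed under a peak.
GNAS, 43 CpG, chr20:58888930-58889229, plus strand: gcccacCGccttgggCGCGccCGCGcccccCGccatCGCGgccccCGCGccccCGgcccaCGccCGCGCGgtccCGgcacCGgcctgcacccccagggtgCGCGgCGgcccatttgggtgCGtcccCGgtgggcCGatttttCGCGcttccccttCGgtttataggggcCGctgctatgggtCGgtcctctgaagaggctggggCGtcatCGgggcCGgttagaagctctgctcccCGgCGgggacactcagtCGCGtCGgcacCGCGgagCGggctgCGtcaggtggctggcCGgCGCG
PLAGL1, 39 CpG, chr6:144008210-144008509, minus strand: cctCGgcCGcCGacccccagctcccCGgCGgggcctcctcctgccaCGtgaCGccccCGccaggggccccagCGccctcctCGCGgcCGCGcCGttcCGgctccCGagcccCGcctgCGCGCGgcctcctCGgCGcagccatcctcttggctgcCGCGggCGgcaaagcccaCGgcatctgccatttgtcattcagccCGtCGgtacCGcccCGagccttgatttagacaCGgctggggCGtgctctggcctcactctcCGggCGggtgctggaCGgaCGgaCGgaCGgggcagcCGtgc
MEST, 25 CpG, chr7:130491835-130492134, plus strand: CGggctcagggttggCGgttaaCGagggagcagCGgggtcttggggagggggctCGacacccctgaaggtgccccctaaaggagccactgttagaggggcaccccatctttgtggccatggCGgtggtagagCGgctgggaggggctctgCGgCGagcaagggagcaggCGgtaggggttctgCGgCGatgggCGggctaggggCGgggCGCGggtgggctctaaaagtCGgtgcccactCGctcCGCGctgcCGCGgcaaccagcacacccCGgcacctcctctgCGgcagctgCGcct
MEG3, 19 CpG, chr14:100825858-100826157, plus strand: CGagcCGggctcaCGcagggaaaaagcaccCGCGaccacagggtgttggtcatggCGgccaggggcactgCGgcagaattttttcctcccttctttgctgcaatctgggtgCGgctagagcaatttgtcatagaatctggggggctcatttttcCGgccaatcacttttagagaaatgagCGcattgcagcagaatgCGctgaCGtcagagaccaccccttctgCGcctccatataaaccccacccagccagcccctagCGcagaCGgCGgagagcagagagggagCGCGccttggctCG
SNRPN, 18 CpG, chr15:24954737-24955036, plus strand: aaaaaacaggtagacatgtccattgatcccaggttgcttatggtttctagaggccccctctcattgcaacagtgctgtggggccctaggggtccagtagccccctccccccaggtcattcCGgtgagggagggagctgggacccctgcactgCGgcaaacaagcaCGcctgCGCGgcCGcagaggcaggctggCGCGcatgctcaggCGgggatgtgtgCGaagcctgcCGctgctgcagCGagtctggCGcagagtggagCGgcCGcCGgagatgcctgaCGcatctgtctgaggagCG
SNRPN, 2 CpG, chr15:24862722-24863021, plus strand: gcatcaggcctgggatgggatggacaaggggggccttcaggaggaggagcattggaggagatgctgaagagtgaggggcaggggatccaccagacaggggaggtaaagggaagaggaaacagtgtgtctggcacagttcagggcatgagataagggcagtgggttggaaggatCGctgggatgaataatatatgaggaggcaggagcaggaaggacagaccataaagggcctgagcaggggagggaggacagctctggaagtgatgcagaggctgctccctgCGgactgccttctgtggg
H19, 6 CpG, chr11:2001217-2001516, minus strand: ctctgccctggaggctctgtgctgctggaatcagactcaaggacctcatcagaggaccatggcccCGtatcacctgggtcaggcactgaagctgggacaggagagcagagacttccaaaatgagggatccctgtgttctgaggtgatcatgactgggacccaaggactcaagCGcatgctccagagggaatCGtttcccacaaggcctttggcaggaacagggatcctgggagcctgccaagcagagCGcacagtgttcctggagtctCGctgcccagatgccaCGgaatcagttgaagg

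The printed GNAS start had more CpG pairs than 95% of the 35116 promoters of the table, and that of PLAGL1 more than 91.3%. MEST followed with more than 68.0%, MEG3 with more than 57.1% and the richer SNRPN start with more than 55.5%. The single H19 start exceeded 33.7% and the poorer SNRPN start 11%. Starts of the same gene were far apart in this respect. In PLAGL1, a zinc finger factor that restrains growth, 2 starts had 39 and 31 CpG pairs and the other 3 had 2 or 3. The 3 MEG3 starts overlap each other and had 17 to 19. Over the 24 starts the median was 17.5 CpG pairs, beside 14 over all promoters (quartiles 4 and 28). Taking each gene's richest start, the median was 22 for the 6 genes, 22.5 for 24 matched genes of a list of 34 other imprinted genes, and 16 over the 27305 genes of the table. Picking the richest start favours genes with many starts. The 6 genes had 24 starts, while the 27305 genes had 35116. The ranks of the printed richest starts among all promoters are favoured in the same way. The hexamer TGCCGC is the core motif of ZFP57, a zinc finger protein that protects imprints. Each match holds 1 CpG pair. It was found on either strand in 11 of the 24 starts from 5 of the 6 genes. Over all promoters it was present in 16.7%, a share not matched for CpG pairs. Of the 24 starts, 15 had more CpG pairs than the median of 14 over all promoters. The share of all genes with the hexamer was not computed. Some starts of MEG3, MEST and GNAS overlap and share sequence. With overlapping starts of a gene counted once, 7 of 19 held the hexamer, and 16.9% over the table. H19 was the gene whose start lacked it in this window of 300 bases.

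**Figure D1:**
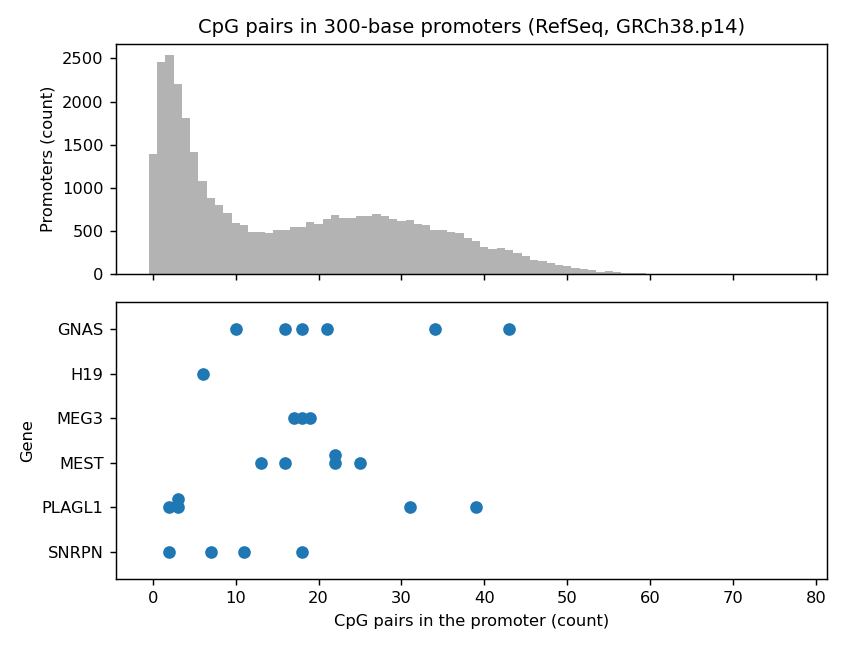
The upper panel shows how many of the 35116 RefSeq promoters hold each number of CpG pairs, and the lower panel gives 1 point for each start of 6 imprinted genes (x axis, CpG pairs in 300 bases). PLAGL1 starts fall into a group of 2 or 3 pairs and a group of 31 and 39, while the MEG3 starts sit between 17 and 19.

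TET1 peaks were present in 8 of the 9 windows, and PEG3 had none. The 55 peaks came to 5.95 per 100 kb (exact 95% Poisson interval 4.48 to 7.74) and lay over 14.1% of the bases of the windows. Intervals here cover counting error only. H19-IGF2 held 18 peaks, MEG3 13, GNAS 9, KCNQ1OT1 7, SNRPN 3, MEST and PLAGL1 2 each, and PEG10 1. In score and width the peaks were ordinary as a class, and their number is set beside stretches of equal length further below. Their median score, the value the authors' peak caller gave each peak, was 172 (95% interval 122 to 245) beside 172 over all peaks, and their median width was 1677 bp (1371 to 2140) beside 1531 bp. Scores below 100, close to the lowest value of 50 in the list, belonged to 18 peaks or 32.7% (Wilson interval 21.8% to 45.9%), with 32.9% over all peaks. Scores of 1000 or more belonged to 9 peaks or 16.4% (8.86% to 28.3%), with 18.6% over all peaks. Scores at or above 3100, where most of the highest peaks are tied, belonged to 2 peaks or 3.64% (1.00% to 12.3%), with 4.69% over all. Widths of 5 kb or more belonged to 4 peaks or 7.27% (2.86% to 17.3%), with 3.20% over all. For all 4 shares the value over all peaks lies inside the interval of the members.

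**Figure D2:**
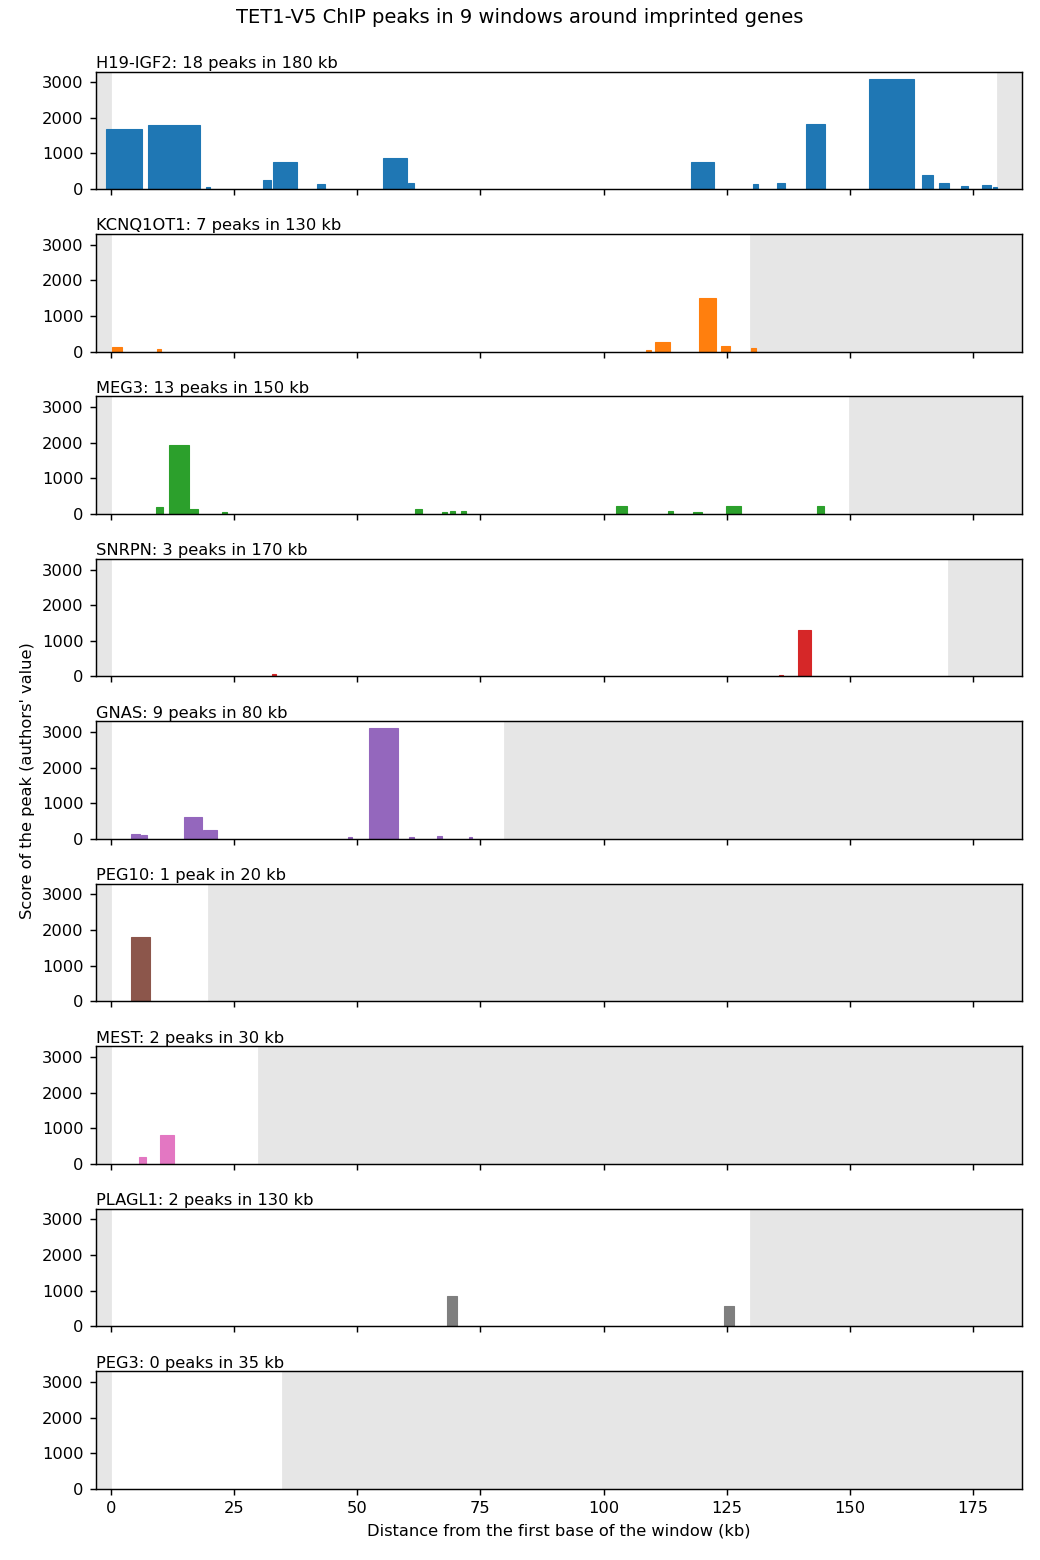
Each panel is 1 window, drawn on a common scale of distance from its first base (kb). Bars are peaks with their true width and the authors' score as height, and grey marks what lies outside the window. H19-IGF2 has groups of peaks towards both ends of its 180 kb, with 56.3 kb free of peaks between, while KCNQ1OT1, MEG3 and SNRPN each have 1 tall peak and GNAS 1 at 3100.

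A peak count means little without the length it was taken over, so each window was set beside all consecutive stretches of its own length on the 24 chromosomes. As many peaks as H19-IGF2, 18 or more in 180 kb, were held by 2.46% of stretches. For GNAS (9 or more in 80 kb) the share was 2.55%, for MEG3 (13 or more in 150 kb) 3.70%, and for KCNQ1OT1 (7 or more in 130 kb) 8.80%. The smaller counts were common: 10.4% of stretches of 30 kb held the 2 peaks of MEST or more, 21.2% of stretches of 20 kb held the 1 peak of PEG10 or more, 28.5% of stretches of 170 kb held the 3 of SNRPN or more, and 34.1% of stretches of 130 kb held the 2 of PLAGL1 or more. A stretch of 35 kb with 0 peaks, as at PEG3, was the usual case, at 70.6%. Covered length changed the order in part. PEG10 came higher up, since its peak took 19.5% of a short window, and 4.34% of stretches had as much. MEST (5.92% of stretches) came before KCNQ1OT1 (8.54%), and PLAGL1 (24.9%) before SNRPN (29.3%), each the reverse of the order by count. Stretches with as much covered length made up 0.586% for H19-IGF2, 2.22% for GNAS and 4.67% for MEG3. Peaks covered 33.9% of H19-IGF2, 23.5% of GNAS, 14.8% of MEG3, 14.5% of MEST, 9.37% of KCNQ1OT1, 3.13% of PLAGL1 and 2.54% of SNRPN. Counted over stretches with at least 1 peak, the share with as many peaks was 3.89% for H19-IGF2, 5.61% for GNAS, 6.27% for MEG3 and 15.7% for KCNQ1OT1. These shares describe the list and are no test, and since neighbouring stretches share regional density they do not count as independent. The 100 kb on each side of a window together held 26 further peaks at H19-IGF2, 21 at KCNQ1OT1, 21 at MEG3 and 5 at GNAS. The other windows had 0 to 3 there. Per base, peaks were denser in these flanks than in the window itself at H19-IGF2, KCNQ1OT1 and MEG3, and sparser at GNAS. The first 5 Mb of chromosome 11, where H19-IGF2 and KCNQ1OT1 lie, held 355 peaks.

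**Figure D3:**
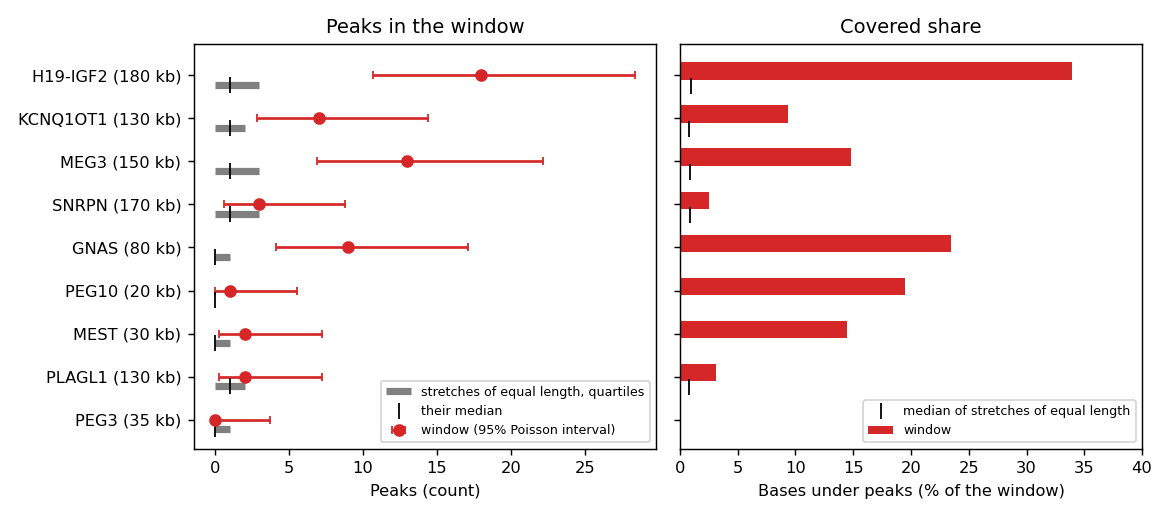
The left panel gives the number of peaks in each window (points, with 95% Poisson intervals) above the quartiles and median of all stretches of the same length, and the right panel the share of bases under peaks. The intervals of H19-IGF2, KCNQ1OT1, MEG3 and GNAS lie above the upper quartile of their stretches, as does that of PEG10 by a small margin (0.0253 against 0), and those of the other windows do not.

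The H19-IGF2 window had the highest peak number and covered share, while GNAS had more peaks per length (11.2 against 10 per 100 kb). H19 is a noncoding RNA expressed from the maternal copy, and IGF2 is a fetal growth factor expressed from the paternal copy. On GRCh38 the nearest protein-coding genes to IGF2 outside its overlaps are MRPL23 and INS. The strongest peak, chr11:2153871-2162944 (9074 bp), stood at a score of 3100. The next were chr11:2141145-2144898 (3754 bp, score 1840), chr11:2007610-2018072 (10463 bp, score 1799) and chr11:1999017-2006428 (7412 bp, score 1686), the last of which starts before the window and runs into it. Strong peaks thus sat towards both ends of the window, and 56.3 kb in the middle, chr11:2061534-2117805, held no peak. The 10463 bp peak was followed by one of only 716 bp, chr11:2019414-2020129, with a score of 51.8, higher than 2.26% of all peaks. After it came 10.8 kb without a peak. Pairs of peaks up to 1 kb apart formed 3 runs, the longest chr11:2030926-2037841 (6916 bp, highest score 770).

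Most peaks at H19-IGF2 and at KCNQ1OT1 scored below peaks of like width. Score and width rise together over the list, so each peak was set beside all peaks whose width was within 10% of its own. Of the 18 H19-IGF2 peaks 13 scored below the median of peaks of like width, 4 above and 1, at 3100, equal to it. The median H19-IGF2 peak outscored 26% of peaks of like width. At KCNQ1OT1 5 of 7 lay below, and the median peak outscored 20.6%. The 6 H19-IGF2 peaks of 4500 bp or more outscored 17.9% to 43.7% of peaks of like width. That length was chosen after their values were seen, and the 43.7% belongs to the peak tied at 3100. For instance chr11:2055154-2060131 (4978 bp) scored 872, where peaks of its width had a median of 1940. The peak chr11:2032940-2037841 (4902 bp) scored 770, where the median was 1890. The only other peak of such width in the windows, at GNAS, outscored 61.3% of peaks of like width.

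**Figure D4:**
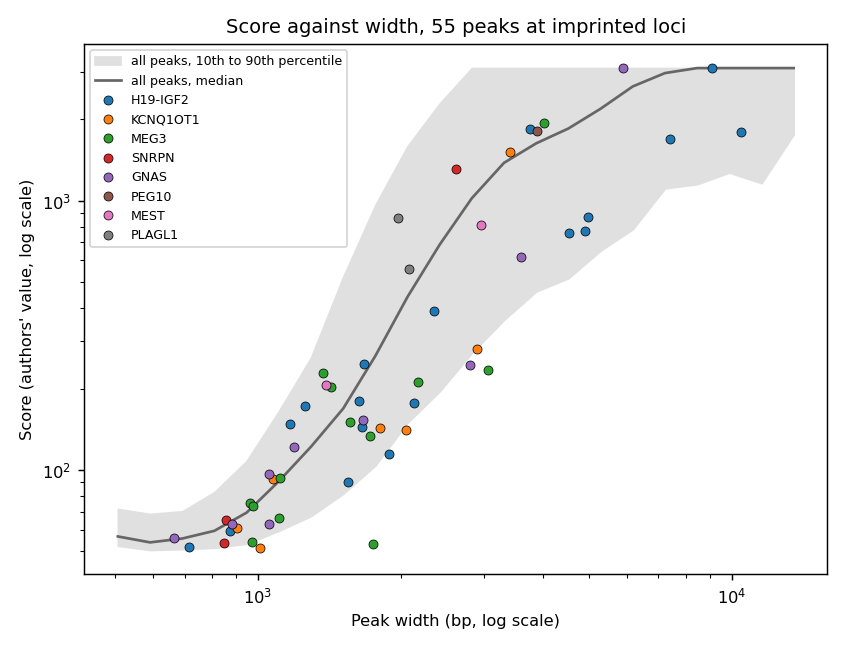
Each point is 1 of the 55 peaks, by width (bp, log scale) and score (log scale), coloured by window, over the median and the 10th to 90th percentile of all peaks. Of the 6 H19-IGF2 peaks of 4500 bp or more, 5 fall under the median line and the one at 3100 lies on it. Both PLAGL1 peaks and the strongest SNRPN peak lie above the line.

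MEG3 encodes a maternally expressed noncoding RNA, and DLK1 and RTL1, which are expressed from the paternal copy, are its neighbours among coding genes on GRCh38. A single strong peak, chr14:101191806-101195828 (4023 bp, score 1942), stood near the start of the window. The other 12 scored from 53.0 to 234, and 6 of the 13 scored below 100. The strong peak was joined within 146 bases by chr14:101195975-101197700 (1726 bp, score 134). Of the others, chr14:101304756-101307812 was the widest (3057 bp, score 234), and peaks of its width had a median score of 1160. The weakest for its width was chr14:101298142-101299893 (1752 bp, score 53.0), which outscored 0.199% of peaks of like width. The longest peak-free stretch of the window was chr14:101203604-101241659 (38.1 kb).

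KCNQ1OT1 is a noncoding RNA transcribed within and antisense to KCNQ1, and on its active copy it silences neighbours such as CDKN1C, an inhibitor of cell division. Its window lies on the same chromosome arm as H19-IGF2, 420 kb further along, and 38 peaks lay wholly between them. The strongest of its 7 peaks was chr11:2719364-2722762 (3399 bp, score 1511). It was flanked by chr11:2710524-2713430 (2907 bp, score 281) on one side and chr11:2723792-2725601 (1810 bp, score 144) on the other. These and the weak chr11:2708650-2709658 (score 51.2) and chr11:2729901-2730976 (score 92.9), the last of which runs past the window, made a group of 5 at the window's far end. Before it came 98.3 kb without a peak, chr11:2610306-2708649. The remaining 2 peaks, with scores of 141 and 61.1, lay at the window's near end.

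SNRPN encodes a protein of the splicing machinery, is expressed from the paternal copy and shares its locus with SNURF and the long transcript SNHG14. The window had 1 strong peak, chr15:25199505-25202118 (2614 bp, score 1312), which outscored 66.0% of peaks of like width. The other 2 were weak: chr15:25195630-25196477 (848 bp, score 53.7) lay 3.03 kb before it, and chr15:25092752-25093608 (857 bp, score 65.2) lay 102 kb before that. Past the strong peak no peak was listed for 480 kb (chr15:25202119-25682460). Of the 1578 intervals between neighbouring peaks on that chromosome 23 were as long, or 1.46%. It was the longest interval touching the window, and such intervals take up more of the chromosome than their share by number.

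GNAS encodes the alpha subunit of the stimulatory G protein and uses several starts, some of them imprinted in opposite directions. Its window combined 1 peak at the ceiling of 3100, chr20:57462464-57468364 (5901 bp), with 8 lesser ones. At lower positions came a run of 6539 bp made of chr20:57424947-57428538 (3592 bp, score 615) and chr20:57428689-57431485 (2797 bp, score 245), 150 bases apart. Before that lay a further pair, chr20:57414194-57415860 (1667 bp, score 153) and chr20:57416182-57417374 (1193 bp, score 122). Both peaks of the longer run were weak for their width, outscoring 21.0% and 8.88% of peaks of like width. The remaining 4 scored from 55.8 to 96.7. Of 243 stretches of 80 kb with exactly 9 peaks, 6.17% had a score gap between first and second peak as large as that of GNAS (3100 against 615). For KCNQ1OT1, MEG3 and SNRPN the same share was 26.5%, 25.2% and 31.1%, so 1 tall peak among low ones was common at their peak counts.

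PEG10, a gene derived from a retrotransposon and expressed in placenta, and its coding neighbour SGCE on GRCh38 belong to an imprinted domain. The window held 1 peak, chr7:94284092-94287982 (3891 bp, score 1805), stronger than 89.5% of all peaks. Among 21135 stretches of 20 kb with a single peak 14.4% had one as strong. The nearest peaks were 143 kb before and 248 kb after it, and 3.88% of all peaks were as far from their nearest neighbour. Its score was close to the median of 1640 of peaks of like width.

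MEST encodes an enzyme of the hydrolase fold and overlaps MESTIT1, MIR335 and COPG2 on GRCh38. Its window had a peak of score 811, chr7:130129977-130132928 (2952 bp), which outscored 40.2% of peaks of like width. A lesser peak, chr7:130125784-130127175 (1392 bp, score 207), lay 2.80 kb before it. After the stronger peak 129 kb held none.

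PLAGL1, which overlaps the noncoding HYMAI on GRCh38, had 2 peaks of moderate score and no weak one. They were chr6:144328289-144330267 (1979 bp, score 863) and chr6:144384446-144386532 (2087 bp, score 558), 54.2 kb apart. Both scored above the median of peaks of like width (369 and 449), the first outscoring 77.3% of them. The nearest peak before them was 163 kb away, and the nearest after them 29.1 kb.

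PEG3, a zinc finger gene expressed from the paternal copy that overlaps ZIM2 on GRCh38, had no peak in its window and none for a long way around it. The window lies in a peak-free interval of 499 kb, chr19:57183819-57682758. On chromosome 19, which is dense in peaks, 6 of 3154 intervals between neighbouring peaks were as long (0.190%), and over all chromosomes 2.02% were. These are shares by number of intervals. Long intervals hold more positions than short ones, so a larger share of positions lies in intervals as long. The peak before it, chr19:57182195-57183818 (1624 bp), scored 264, and the peak after it, chr19:57682759-57683440 (682 bp), scored 65.2. Of stretches of 35 kb on chromosome 19, 34.2% held no peak. Whether reads map uniquely in this interval was not analysed here, and binding below the caller's threshold does not show in a peak list.

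Grouped by the parental copy that carries the mark, the 2 windows with a paternally methylated control region held 31 peaks in 330 kb, or 9.39 per 100 kb (6.38 to 13.3). The 7 with a maternally methylated one held 24 in 595 kb, or 4.03 per 100 kb (2.58 to 6.00). Peaks covered 25.2% and 8% of the bases, in that order. Median scores were 177 (115 to 248) and 148 (65.2 to 615), with intervals that overlap. The grouping was made with the counts known and the window lengths come from the rule, so the counts are given without a test. Single windows overlapped between the groups: H19-IGF2 had 10 peaks per 100 kb and MEG3 8.67, while the others ran from 0 at PEG3 to 11.2 at GNAS. The strongest peak of each of the 8 windows with any scored at least 811, in 6 of the 8 it was also the widest, and 6 of the 8 scored above the median of peaks of like width (range of the share outscored 40.2% to 77.3%). Over all 55, 22 scored above that median and 32 below. The strongest peaks were picked by score, so setting them beside unpicked peaks of like width favours them. Of stretches with the same length and peak count, 14.4% had as high a top score for PEG10, 37.0% for GNAS and 39.5% for MEST. For the other windows with peaks this share ran from 45.7% at SNRPN to 65.0% at MEG3, so such top scores were common there.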

How the data were processed

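V5 ChIP and input chromatin of 1 library each were compared by the authors. The submitters' processing notes name the read aligner BWA 0.7.17 and the build hg19. Peaks were called with MACS, per the peak names in the file, and its version and settings were not given in the sources used here. Each line of the deposited list gives a peak's position and a score whose unit no header states (lowest value 50, most of the highest tied at 3100). The score was used to describe and rank peaks within the list. Read depth is unknown, so no precision can be drawn from it, and with 1 library a group there is no test.

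Members and lists were chosen with earlier results of these data known. All 10 genes are named through their windows. Named peaks are up to the 3 highest in score per window, the widest, runs with gaps up to 1 kb, the longest peak-free stretch and, after their values were seen, single further peaks. Peak positions are hg19, counted from 1. No hg19 genome or annotation was used, so peaks were not given to genes or control regions within a window, and GRCh38.p14 tables served for gene names and promoter sequences only. Counts, coverage and stretches were computed with scipy 1.17.1, numpy 2.4.6 and pandas 2.3.3 under Python 3.11.15, drawn with matplotlib 3.10.9, and tested on simulated peaks. Intervals of 95% are exact Poisson for counts, Wilson for shares and order statistics for medians. Comparisons with peaks of like width, of intervals between peaks and by methylated copy were added after the list had been read. Alternatives were stricter scores, other overlap rules, merging, wider windows and other sets of stretches.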

Additional observations from a re-analysis of the deposited data

How the results depend on the processing

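Of 40 alternative values for the 7 summary results, 27 stayed close (within 1.5 times for peak number and covered length, otherwise within the interval) and 13 moved. Most moves followed from a stricter score by construction. Keeping scores of 100 or more raised the median width to 2181 bp and the median score to 248.1. The upper 50% of all peaks by score left 27 peaks (median width 2952 bp, median score 754.5). The top 25% left 14 peaks over 68896 bp (14.3% at the ceiling, median width 4280.5 bp, median score 1599), and all 8 windows with a peak kept at least 1. The share of stretches with as many peaks had a median over the 9 windows of 10.4%, which became 12.9% over stretches of the same chromosome and 15.7% over stretches with at least 1 peak. For covered length the median of 5.92% became 5.42% on the same chromosome. Counting midpoints (54 peaks) or whole peaks (53), merging up to 1 kb (47) and widening by 10 kb (66) kept the peak number within 1.5 times. Of 108 values for single windows 64 stayed close and 44 moved. The share of stretches with as many peaks moved for 9 of 9 windows on the same chromosome, for SNRPN from 28.5% to 42.3% and for PEG3 from 70.6% to 34.2%. Alternatives for 4 further results were added after seeing the data. Windows with a paternally methylated control region had more peaks per 100 kb than the others in 7 of 7 settings (2.42 against 1.01 in the top 25%, 10.3 against 3.81 when widened). These settings reuse 1 peak list and are not independent. In the top 25% H19-IGF2 held 7 peaks and MEG3 held 1, so the 2.42 there rests mostly on H19-IGF2. The number of H19-IGF2 peaks below the median of like width was 13 with bands of 5%, 10% and 20%. Starts with the hexamer went from 11 to 7 when overlapping starts were counted once. Median scores by methylated copy were not recomputed. Depth limits could not be given, without read counts. No paired analysis was possible because the ChIP and the input are 1 library each.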
